A study of Mus musculus with 6 samples.

Results

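The proteasome subunit genes are the mouse genes whose symbols read Psma, Psmb, Psmc, Psmd, Psme, Psmf or Psmg followed by a number. They were taken from the protein-coding genes of the GENCODE M21 annotation, and 48 such genes were annotated, all of them with a row among the 51912 gene IDs of the count table. A mean of at least 1 CPM (a count scaled to library size) over all libraries was required, before any further scaling, which 46 of the 48 met. The lowest members inside that minimum were Psmb9 at 2.18 CPM and Psmg4 at 4.19 CPM, and the genes left out were Psma8 at 0.487 CPM and Psmb11 at 0.0603 CPM, known as the subunits of testis and thymus proteasomes.

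RNA was measured in 6 bulk libraries of primary osteoblasts, the cells that lay down bone, in 2 groups of 3. The cells came from the skull caps (calvaria) of C57BL/6J pups at an age of 1 day, and the pups of both groups were Mark3 flox/flox, so that Cre recombinase can remove part of the Mark3 gene, which encodes a microtubule affinity-regulating kinase. The group called WT received an adenovirus carrying GFP for 24 h and the group called Mark3-KO received an adenovirus carrying CRE for 24 h. Viral cargo and Mark3 genotype changed together and cannot be told apart. Whether the 3 libraries of a group represent independent cultures or litters is not stated in the labels, and the p-values therefore reflect library-to-library spread, which could be technical.

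The proteasome degrades proteins that carry a ubiquitin chain. Its 20S core is a barrel of stacked rings, outer rings of alpha subunits that gate the entrance and inner rings of beta subunits that hold the catalytic sites, and the 19S cap on its end recognises, unfolds and feeds in the substrate. Interferons and other inflammatory signals induce the immunoproteasome, in which Psmb8, Psmb9 and Psmb10 take the places of the constitutive catalytic subunits Psmb5, Psmb6 and Psmb7. In osteoblasts the proteasome is known for setting the amounts of short-lived proteins, among them the transcription factor Runx2.

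The sequences of the catalytic genes show how an immunoproteasome subunit and the constitutive subunit that it replaces can differ in base composition, a property that the values described here are set against. The 120 bases in the middle of the coding sequence are given 5′ to 3′ for 2 of the 3 pairs, from the principal transcript of the GENCODE annotation, with G and C in capitals.
Psmb5: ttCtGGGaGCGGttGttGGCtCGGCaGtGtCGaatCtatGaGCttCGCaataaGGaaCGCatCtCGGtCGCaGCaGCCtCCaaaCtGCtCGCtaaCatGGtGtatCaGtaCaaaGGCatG
Psmb8: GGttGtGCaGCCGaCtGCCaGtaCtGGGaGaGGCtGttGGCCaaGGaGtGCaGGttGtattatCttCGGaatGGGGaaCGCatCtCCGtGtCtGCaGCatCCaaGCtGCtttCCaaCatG
Psmb7: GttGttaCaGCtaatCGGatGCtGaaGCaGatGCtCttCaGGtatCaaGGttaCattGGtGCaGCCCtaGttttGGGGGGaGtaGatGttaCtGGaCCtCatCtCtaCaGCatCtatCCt
Psmb10: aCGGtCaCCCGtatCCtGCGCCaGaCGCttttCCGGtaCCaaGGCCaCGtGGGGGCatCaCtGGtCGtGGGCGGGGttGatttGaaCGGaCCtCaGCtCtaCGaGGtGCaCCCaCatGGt
Over the whole coding sequence G and C made up 57.8% in Psmb5 and 57.0% in Psmb8, so this pair was close. They made up 48.6% in Psmb7 and 59.8% in Psmb10, the pair that differs. Psmb6 and Psmb9 had 57.0% and 57.7%.

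Library totals ran from 56925883 to 71445243 counts. Mark3 itself, the check of the labels, stood at 113, 118 and 118 CPM in the WT libraries and at 47.6, 52.4 and 44.1 CPM in the Mark3-KO libraries. No Mark3-KO library reached a WT library, and the Mark3-KO mean was 41.4% of the WT mean (log2 fold change -1.27, SE 0.10, edgeR quasi-likelihood, Benjamini-Hochberg adjusted p = 0.0153). Over all genes 41 of 19017 passed the threshold of 0.05, or 0.216%. Osteoblast markers were all detected, with Col1a1 at 6993 to 21342 CPM in WT against 3408 to 5145 CPM in Mark3-KO, although the late markers Bglap and Bglap2 reached at most 1.63 CPM in any library. Of the 10 osteoblast markers 8 had a negative log2 fold change and 2 a positive one, Spp1 (0.34) and Sparc (0.35), and none passed the threshold. The 10 markers of macrophages and other blood cells summed to 213 to 237 CPM in WT against 234 to 277 CPM in Mark3-KO, with none at 0 in all libraries, and most of that sum was Lyz2. The part of these cell markers in the members' values was not tested.

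Proteasome subunit genes took 0.429%, 0.425% and 0.464% of the counts of the WT libraries and 0.483%, 0.486% and 0.472% of those of the Mark3-KO libraries. On library sizes scaled with TMM, which allows for differences in RNA composition, the 46 members summed to 4412 to 4673 CPM in WT against 4536 to 4682 CPM in Mark3-KO, so the scaled sums of the groups overlapped. Individual members lay on both sides of this sum. Between groups, 21 members had a positive and 25 a negative log2 fold change (Mark3-KO over WT), from -2.07 for Psmb10 to 0.59 for Psme4. In bulk libraries, fewer cells of a type and less RNA per cell cannot be told apart.

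None of the 46 members passed the quasi-likelihood test of edgeR in either direction after Benjamini-Hochberg adjustment over all tested genes, and limma-voom also called 0. The smallest adjusted p among them was 0.0506 with edgeR, a value that 12 members shared, so many lay just outside the threshold. Many genes outside the part did too. Below an edgeR adjusted p of 0.055 were 20 of the 46 members and 4707 of the 19017 tested genes. At an unadjusted p below 0.05, 12 members (26.1%) were higher and 16 (34.8%) lower in Mark3-KO, where 20.8% and 24.8% of all tested genes were. DESeq2's Wald test called 10 members (21.7%) higher and 13 (28.3%) lower, against 15.5% and 23.1% of its 17895 genes. The levels of WT and Mark3-KO were separated in 15 members (32.6%) with higher and 17 (37.0%) with lower values in Mark3-KO, against 25.8% and 27.5% of all tested genes. Without WT replicate 3 edgeR called 26 members (13 higher and 13 lower, 56.5%), against 32.9% of all genes tested there. Without Mark3-KO replicate 1 it called 21 (9 higher and 12 lower, 45.7%), against 32.1%, and leaving out any of the other 4 libraries gave 0 members. With library size alone as the scaling it called 18 (10 higher and 8 lower, 39.1%), against 23.7%. A filter of 1 CPM in 3 libraries gave 21 (11 higher and 10 lower, 45.7%), against 37.4%.

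Those 2 libraries lie nearest the opposite group. WT replicate 3 was the WT library closest to the Mark3-KO mean in 38 of the 46 members, or 82.6%, where this held for 67.8% of all tested genes. Mark3-KO replicate 1 was the closest to the WT mean in 33 members, or 71.7%, against 66.7% of all tested genes. The heat map of the members by library shows both as intermediate columns.

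**Figure D1:**
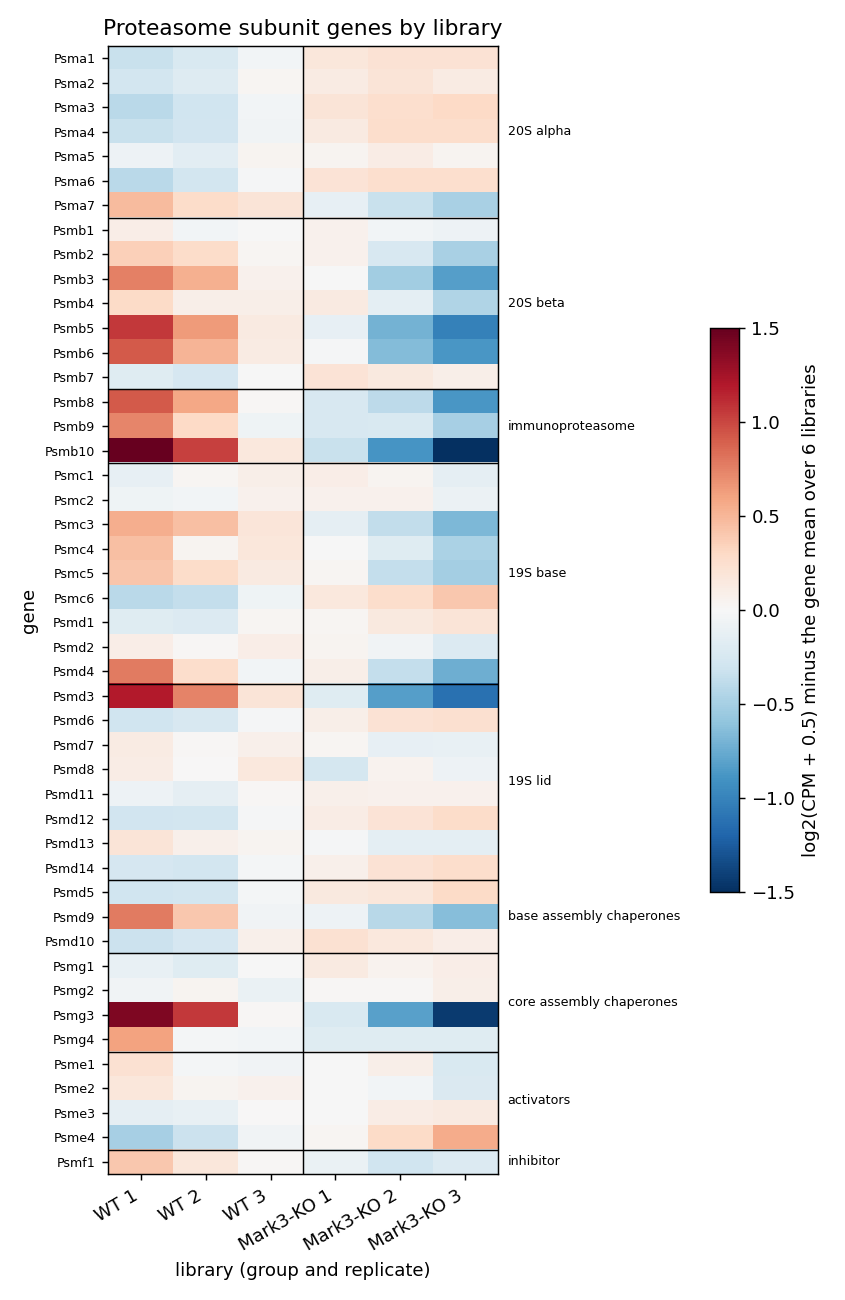
Each row is 1 of the 46 proteasome subunit genes, grouped by role, and each column is 1 library; colour is the log2 of CPM plus 0.5 minus the gene's mean over the 6 libraries, with the colour scale ending at 1.5 in each direction. Most alpha subunits are higher and the immunoproteasome subunits lower in the Mark3-KO columns, with WT replicate 3 and Mark3-KO replicate 1 in between.

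The members' differences between groups went with the G and C content of their transcripts. Across the 46 members the log2 fold change and the G and C percentage had a Pearson correlation of -0.82 and a Spearman correlation of -0.91, and across 18965 tested genes these were -0.73 and -0.80, so the relation was not particular to the proteasome. These are descriptions across genes, which share the same 6 libraries and are not replicates. Of the 23 members with the lower content (37.0 to 49.8%), 20 had a positive log2 fold change, and the exceptions were Psmb1, Psmd7 and Psmf1. Of the 23 with the higher content (51.0 to 58.3%), 22 had a negative one, and the exception was Psmg1.

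Because of this relation most log2 fold changes are also given with a GC correction, in which a smooth curve of each library's deviation on transcript G and C content was removed before the test. With it, edgeR called 0 members and 85 genes, or 0.447% of all tested. At an unadjusted p below 0.05 it put 7 members (15.2%) higher and 12 (26.1%) lower, against 11.9% and 13.0% of all tested genes. The standard deviation of the members' log2 fold changes went from 0.64 to 0.32, and that over all tested genes from 0.79 to 0.52. The members' median went from -0.12 to -0.03, where the median of all tested genes was 0.02 in both. The part of base composition in the differences was not tested beyond this correction.

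**Figure D2:**
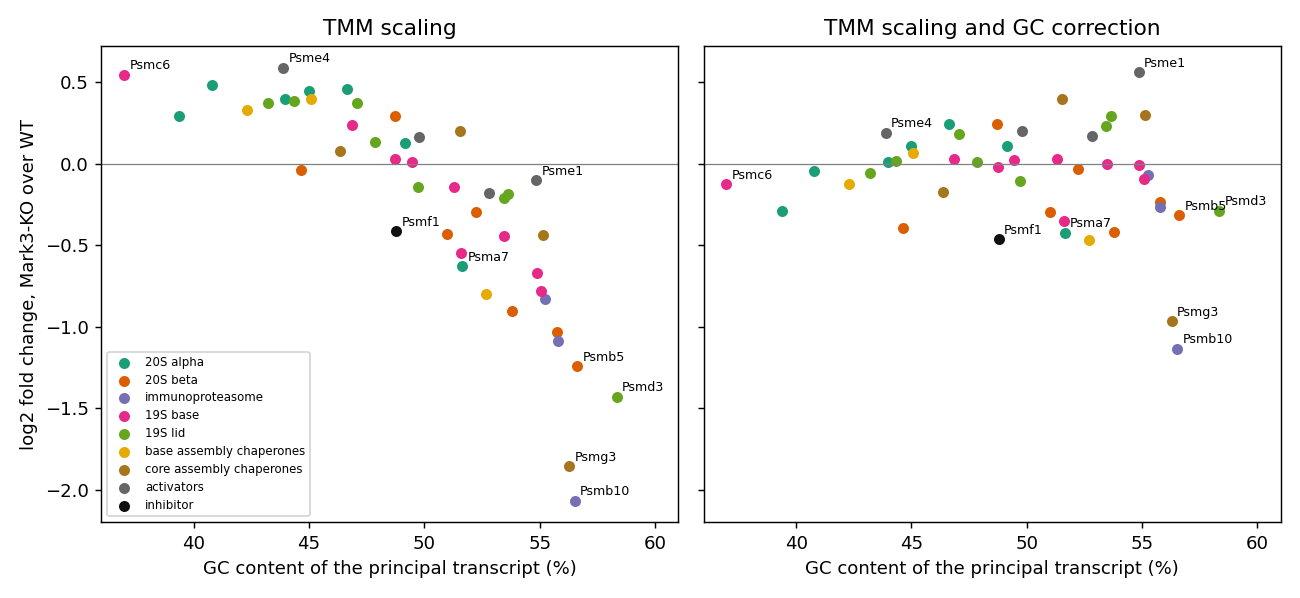
Each point is 1 proteasome subunit gene, with the G and C content of its principal transcript in percent on the x axis and its log2 fold change (Mark3-KO over WT) on the y axis, before (left) and after (right) the GC correction; colours mark the role classes. The points slope downward on the left, with a Pearson correlation of -0.82, and scatter around 0 on the right, with -0.19.

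The genes of the alpha ring had mostly higher values in Mark3-KO before the correction. Its 7 genes had a median log2 fold change of 0.40, 6 positive and 1 negative. In 5 of them (71.4%) all Mark3-KO libraries lay above all WT libraries, against 25.8% of all tested genes. With the GC correction the median was 0.01. None of the 7 passed the test.

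Psma3 encodes a subunit of the alpha ring. It stood at 111, 119 and 143 CPM in WT and at 167, 174 and 181 CPM in Mark3-KO. All Mark3-KO libraries were above all WT libraries, yet the log2 fold change of 0.48 (SE 0.12) did not pass (edgeR quasi-likelihood, Benjamini-Hochberg adjusted p = 0.0506), and it was -0.04 with the GC correction. Psma4, another ring member, measured 128, 132 and 156 CPM in WT against 178, 194 and 194 CPM in Mark3-KO, again without overlap. On the log2 scale its fold change was 0.44 (SE 0.11), and 0.11 with the GC correction.

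Psma7 was the alpha subunit with the opposite sign. It stood at 121, 105 and 98.9 CPM in WT against 79.5, 68.8 and 61.5 CPM in Mark3-KO, with every Mark3-KO library below every WT library. The log2 fold change was -0.63 (SE 0.13; edgeR quasi-likelihood, Benjamini-Hochberg adjusted p = 0.0506) and stayed at -0.42 (SE 0.07; adjusted p = 0.0934) with the GC correction on the principal transcript. With the GC content of the longest transcript instead, an alternative chosen after seeing the data, it was 0.40, so even the sign of this difference depends on which transcript is taken. The remaining alpha genes were Psma1 at 0.40, Psma2 at 0.29, Psma5 at 0.13 and Psma6 at 0.46 on the log2 scale. With the correction these were 0.01, -0.29, 0.11 and 0.24.

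The beta ring had mostly negative log2 fold changes. Of its 7 constitutive genes 6 were negative and 1, Psmb7, positive, with a median of -0.43 that was -0.29 with the GC correction. Before the correction the catalytic subunits Psmb5 and Psmb6 had the most negative values. With it Psmb3 and Psmb1 had on the principal transcripts (-0.42 and -0.39). On the longest transcripts Psmb3 and Psmb6 had (-0.83 and -0.79), and Psmb1 was at -0.0009. Psmb7 was the only positive one before the correction and with it on the principal transcripts.

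Psmb5, on chr14:54614119-54618022 of GRCm38, encodes the subunit with the chymotrypsin-like activity, the main target of the drug bortezomib. It measured 80.8, 59.97 and 42.2 CPM in WT against 35.2, 23.2 and 18.8 CPM in Mark3-KO. The groups did not overlap, but WT replicate 3 was nearer to Mark3-KO replicate 1 than to WT replicate 2. It had a log2 fold change of -1.24 (SE 0.31; edgeR quasi-likelihood, Benjamini-Hochberg adjusted p = 0.0506), and -0.32 (SE 0.10; adjusted p = 0.136) with the GC correction.

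Psmb6, on chr11:70525367-70527858, carries the caspase-like activity. Its libraries measured 106, 79.3 and 60.7 CPM in WT against 54.9, 35.3 and 30.1 CPM in Mark3-KO, which is a separation of the groups with WT replicate 3 at the edge. Between groups the log2 fold change was -1.03 (SE 0.29; edgeR quasi-likelihood, Benjamini-Hochberg adjusted p = 0.0515). With the correction it was -0.24 on the principal transcript and -0.79 on the longest one.

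Psmb7, on chr2:38588036-38644087, carries the trypsin-like activity. It stood at 96.8, 92.4 and 110 CPM in WT and at 127, 122 and 118 CPM in Mark3-KO. The Mark3-KO libraries were all higher, by a log2 fold change of 0.29 (SE 0.10; edgeR quasi-likelihood, Benjamini-Hochberg adjusted p = 0.0671). With the GC correction it was 0.24 on the principal transcript and -0.20 on the longest one. Psmb7 shares 405 exon bases with Nek6, whose log2 fold change was -0.05, and how reads of overlapping genes were counted is not given in the sources used here.

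Psmb3, a beta subunit without a catalytic site, measured 87.7, 74.8 and 54.0 CPM in WT against 51.3, 35.9 and 28.8 CPM in Mark3-KO, where the groups were separated by the small gap between WT replicate 3 and Mark3-KO replicate 1. The log2 fold change was -0.90 (SE 0.26; edgeR quasi-likelihood, Benjamini-Hochberg adjusted p = 0.0529). With the GC correction it was -0.42 on the principal transcript and -0.83 on the longest one. The other noncatalytic subunits Psmb1, Psmb2 and Psmb4 had log2 fold changes of -0.04, -0.43 and -0.29. With the correction these were -0.39, -0.29 and -0.03 on the principal transcripts and -0.0009, -0.25 and 0.02 on the longest ones. In all 3 the libraries of the groups overlapped.

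Levels per kb of transcript, which allow genes to be compared, varied more among the core subunits in some Mark3-KO libraries. The standard deviation of the log2 level per kb over the 14 constitutive core genes was 0.56, 0.49 and 0.48 in WT against 0.55, 0.71 and 0.80 in Mark3-KO, so Mark3-KO replicate 1 lay among the WT libraries. Highest over lowest subunit was 3.40-fold, 2.74-fold and 2.85-fold in WT against 3.89-fold, 6.45-fold and 7.94-fold in Mark3-KO. These levels carry no GC correction. The lowest was Psma3 in WT replicates 1 and 2 and Psmb5 in the other 4 libraries.

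**Figure D3:**
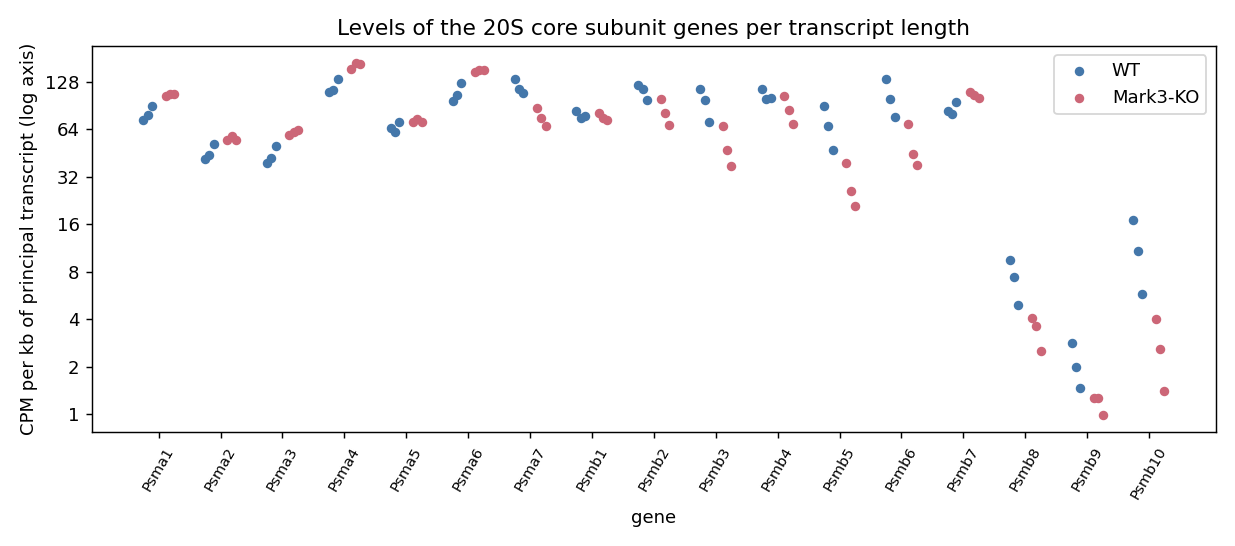
The y axis, on a log scale, gives the level of the 14 constitutive 20S core genes and the 3 immunoproteasome genes as CPM per kb of its principal transcript, and each point is 1 library (WT or Mark3-KO). Psmb5 is the lowest constitutive gene in all 3 Mark3-KO libraries, and the immunoproteasome genes lie below the constitutive ones in every library.

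Before the GC correction the immunoproteasome genes had the most negative class median. Each of the 3 had lower values in every Mark3-KO library than in any WT library, as did 27.5% of all tested genes. The median log2 fold change was -1.09, and none of the 3 passed the test. With the GC correction the median was -0.27 on the principal transcripts, where the inhibitor Psmf1 (-0.46) and the beta ring (-0.29) were more negative, and -0.72 on the longest ones, so its size depends on the transcript taken. Psmb10 alone of the 3 stayed past an unadjusted p of 0.05 with the correction on the principal transcripts. Of the 10 markers of macrophages and other blood cells, 2 had separated groups with higher values in Mark3-KO, Adgre1 and Ptprc (log2 fold changes 0.53 and 0.67), and 2 with lower values, Csf1r and Cd68 (-0.51 and -0.37). That is 20% each way, below the 25.8% higher and 27.5% lower of all tested genes. Over the 10, 6 were positive and 4 negative with a median of 0.12, and their part in the immunoproteasome values was not tested.

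Psmb10, on chr8:105935735-105938444, replaces Psmb7 in the immunoproteasome. It measured 22.4, 14.2 and 7.54 CPM in WT against 5.25, 3.42 and 1.84 CPM in Mark3-KO. The groups did not overlap, although the WT libraries spread by more than the gap between the groups. Its log2 fold change of -2.07 (SE 0.51) was the most negative of all members (edgeR quasi-likelihood, Benjamini-Hochberg adjusted p = 0.0506). With the GC correction on the principal transcripts it was -1.14 (SE 0.30; adjusted p = 0.107), also the most negative of all members. On the longest transcripts it was -1.11, and Psmg3 was more negative, at -1.72.

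Psmb8, on chr17:34197721-34201454, replaces Psmb5. It stood at 15.5, 12.1 and 8.08 CPM in WT and at 6.69, 5.92 and 4.10 CPM in Mark3-KO, with no overlap and a narrow gap. Its log2 fold change was -1.09 (SE 0.29; edgeR quasi-likelihood, Benjamini-Hochberg adjusted p = 0.0506), and -0.27 (SE 0.13; adjusted p = 0.268) with the GC correction on the principal transcript and -0.72 on the longest one.

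Psmb9, on chr17:34181987-34187764, replaces Psmb6 and was the least abundant member. Its values were 3.82, 2.71 and 1.98 CPM in WT against 1.71, 1.73 and 1.35 CPM in Mark3-KO, with all Mark3-KO libraries lower. The log2 fold change was -0.83 (SE 0.28; edgeR quasi-likelihood, Benjamini-Hochberg adjusted p = 0.0665), and -0.07 with the correction. Psmb9 shares 212 exon bases with Tap1, a peptide transporter gene whose log2 fold change was -1.45, and the kit does not mark strand, so reads there cannot be told apart.

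The share of the immunoproteasome form within each catalytic pair was taken as the ratio of levels per kb within a library, which no scaling factor affects. Psmb8 stood at 10.8% of Psmb5 in WT and 12.1% in Mark3-KO, from mean log2 ratios of -3.22 ± 0.04 and -3.04 ± 0.21 (SD, n = 3). Psmb9 stood at 2.02% of Psmb6 in WT and 2.42% in Mark3-KO, from -5.63 ± 0.07 and -5.37 ± 0.35. In both pairs the immunoproteasome and the constitutive gene were lower together, and the log2 ratios of the groups overlapped.

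The third pair was the one whose uncorrected log2 ratios were separated between the groups. The log2 ratio of Psmb10 to Psmb7 was -2.29, -2.88 and -4.04 in WT against -4.77, -5.33 and -6.18 in Mark3-KO, which did not overlap, and the means correspond to 11.9% and 2.33%. The difference of -2.36 was -1.39 with the GC correction, while those of the other pairs were 0.17 and 0.26 before and 0.05 and 0.18 after it. Psmb7 and Psmb10 have 48.7% and 56.5% G and C over the principal transcripts, the most unlike of the 3 pairs. Over the longest transcripts they have 40.8% and 56.5%, Psmb5 and Psmb8 56.6% and 52.5%, and Psmb6 and Psmb9 51.6% and 54.1%. With the correction on the longest transcripts the log2 fold changes of Psmb10 and Psmb7 were -1.11 and -0.20. Those of Psmb8 and Psmb5 were -0.72 and -0.29, and those of Psmb9 and Psmb6 were -0.20 and -0.79. The contrast between this pair and the others after correction therefore depends on the transcript taken. The part of base composition in the difference was not tested. No test of the ratios was made, since 3 libraries against 3 cannot give an exact two-sided permutation p below 0.1.

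**Figure D4:**
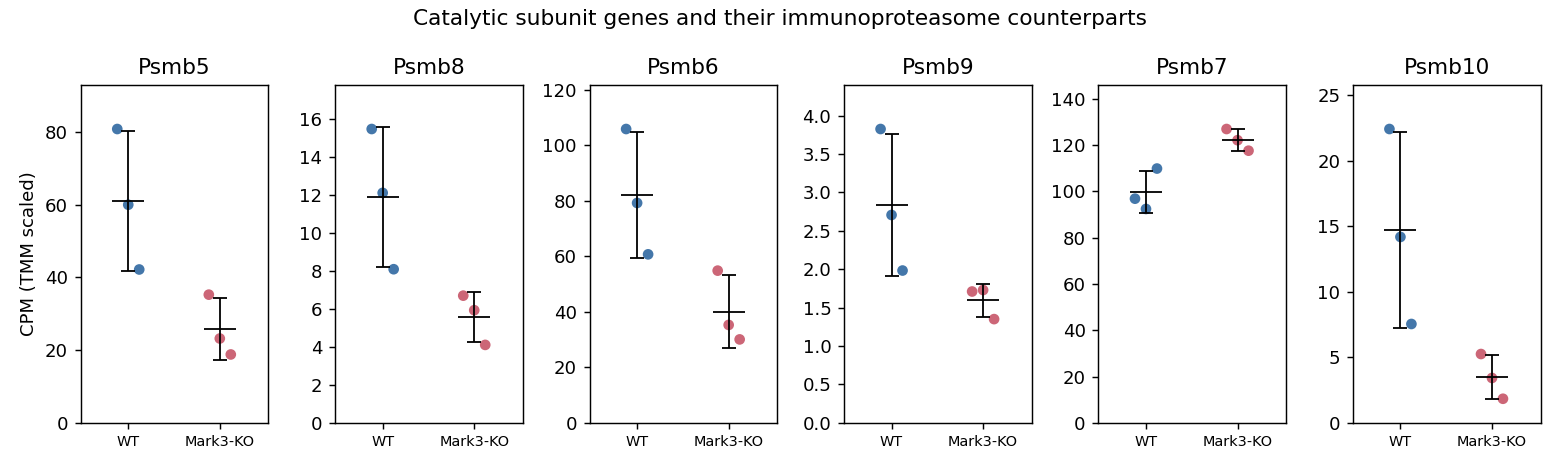
Each panel gives the CPM of 1 gene on its own y axis from 0, a constitutive catalytic gene followed by the immunoproteasome gene that replaces it; points are libraries (blue WT, red Mark3-KO), and the black bars give the mean and SD of 3 libraries. Psmb7 is the only one of the 6 with higher values in Mark3-KO, and the Mark3-KO libraries of Psmb10 lie between 1.84 and 5.25.

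The base of the 19S cap contains the ATPases Psmc1 to Psmc6, which unfold substrates, and the large scaffold or ubiquitin-binding subunits Psmd1, Psmd2 and Psmd4. Its 9 genes split into 4 positive and 5 negative log2 fold changes with a median of -0.14, which was -0.01 with the GC correction. None passed.

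Psmc6 measured 127, 132 and 161 CPM in WT against 188, 203 and 223 CPM in Mark3-KO, with every Mark3-KO library above. Its log2 fold change was 0.55 (SE 0.13; edgeR quasi-likelihood, Benjamini-Hochberg adjusted p = 0.0506), and -0.12 with the correction, a change of sign. Its transcript has the lowest G and C content of all members, 37.0%.

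Psmc3 went the other way, with 173, 161 and 134 CPM in WT against 108, 91.3 and 73.6 CPM in Mark3-KO and no overlap. The log2 fold change of -0.78 (SE 0.17) was -0.09 with the correction. Psmc3 shares 215 exon bases with Slc39a13, a zinc transporter gene with a log2 fold change of -1.21. Psmc5 stood at 107, 97.2 and 88.0 CPM in WT against 81.8, 62.2 and 56.2 CPM in Mark3-KO, also separated. It had a log2 fold change of -0.55 (SE 0.16) and kept -0.35 with the correction.

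The remaining base genes were nearer 0 or more spread out. Psmc1 and Psmc2 had log2 fold changes of 0.01 and 0.03 and crossed 0 in several of the fits that left out 1 library. Psmc4 had -0.44, Psmd1 0.24, Psmd2 -0.14 and Psmd4, a ubiquitin receptor, -0.67, and with the correction these 4 lay between -0.01 and 0.03. Psmd2 was the most abundant member per kb in WT, at 129 ± 4.28 CPM per kb (SD, n = 3).

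The lid, which holds the enzyme that cuts off ubiquitin chains, had 4 positive and 4 negative genes and a median of -0.00, and 0.01 with the GC correction. Psmd3 stood apart. It measured 141, 104 and 70.7 CPM in WT against 54.3, 34.8 and 28.2 CPM in Mark3-KO, without overlap.

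Psmd3 had a log2 fold change of -1.43 (SE 0.33; edgeR quasi-likelihood, Benjamini-Hochberg adjusted p = 0.0506). With the correction it was -0.29 on the principal transcript and -0.65 on the longest one. The principal transcript of Psmd3 has the highest G and C content of all members, 58.3%. Psmd12 stood at 85.0, 85.4 and 103 CPM in WT against 112, 120 and 125 CPM in Mark3-KO, and Psmd6 at 89.2, 92.8 and 108 CPM and 117, 128 and 130 CPM. Both were separated with higher Mark3-KO values, by 0.39 (SE 0.11) and 0.37 (SE 0.11) on the log2 scale. With the correction Psmd12 was at 0.02 and Psmd6 at 0.18. Psmd14, the deubiquitinating enzyme itself, had a log2 fold change of 0.37, and -0.06 with the correction. The others were Psmd7 at -0.14, Psmd8 at -0.19, Psmd11 at 0.13 and Psmd13 at -0.21, and with the correction these were -0.11, 0.29, 0.01 and 0.23.

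The chaperones that help to build the cap and the core had few members and mixed signs. Psmd5, a chaperone of the base, measured 67.7, 68.5 and 81.7 CPM in WT against 91.8, 93.2 and 102 CPM in Mark3-KO, all higher, with a log2 fold change of 0.40 (SE 0.11), and 0.07 with the correction. Psmd9, another of them, stood at 32.5, 25.1 and 18.1 CPM in WT against 17.7, 13.9 and 11.9 CPM in Mark3-KO. Its groups nearly touched, its log2 fold change was -0.80 (SE 0.25), and it kept -0.47 with the correction. Psmd10, also known as the oncoprotein gankyrin, measured 16.1, 17.0 and 21.3 CPM in WT against 23.9, 22.6 and 21.8 CPM in Mark3-KO, a narrow separation. It had a log2 fold change of 0.33 (SE 0.14), and -0.13 with the correction.

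Psmg3, one of the chaperones that assemble the alpha ring, had the second most negative log2 fold change. It measured 13.2, 10.4 and 4.78 CPM in WT against 3.93, 2.45 and 1.43 CPM in Mark3-KO, with no overlap and WT replicate 3 close to the Mark3-KO libraries. Psmg3 had a log2 fold change of -1.85 (SE 0.49; edgeR quasi-likelihood, Benjamini-Hochberg adjusted p = 0.0506). With the correction it was -0.97 (SE 0.29; adjusted p = 0.122) on the principal transcript and -1.72 on the longest one. Psmg4, which is known to pair with Psmg3, stood at 6.55, 4.07 and 4.02 CPM in WT against 3.58, 3.61 and 3.6 CPM in Mark3-KO. WT replicate 1 was the high library there, and the log2 fold change of -0.44 (SE 0.23) was 0.30 with the correction.

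The other chaperone pair showed small values. Psmg1 measured 18, 17.2 and 19.5 CPM in WT against 21.5, 20.4 and 21 CPM in Mark3-KO, without overlap. It had a log2 fold change of 0.20 (SE 0.11), and 0.40 (SE 0.10; edgeR quasi-likelihood, Benjamini-Hochberg adjusted p = 0.102) with the correction. Psmg2 had a log2 fold change of 0.08, and -0.17 with the correction.

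The activators cap the core in place of the 19S complex. Psme4, which encodes PA200, measured 202, 227 and 274 CPM in WT against 290, 348 and 420 CPM in Mark3-KO, and its libraries were separated with Mark3-KO higher. Psme4 had a log2 fold change of 0.59 (SE 0.17; edgeR quasi-likelihood, Benjamini-Hochberg adjusted p = 0.0541), and 0.19 with the correction. Psme2, the beta subunit of the interferon-inducible PA28 activator, stood at 68.7, 62.7 and 63.8 CPM in WT against 60.6, 59.4 and 52.3 CPM in Mark3-KO, slightly lower in each library. On the log2 scale its fold change was -0.18 (SE 0.10), and 0.17 with the correction. Psme3, the nuclear activator, stood at 116, 118 and 128 CPM in WT against 126, 138 and 140 CPM in Mark3-KO, which overlapped.

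Psme3 had a log2 fold change of 0.16 (SE 0.09), and 0.20 with the correction. Psme1, the partner of Psme2, had -0.10, and 0.56 (SE 0.12; edgeR quasi-likelihood, Benjamini-Hochberg adjusted p = 0.102) with the correction, the largest positive corrected value of any member. Psme2 has a near-identical copy, Psme2b, at 20.1 ± 0.43 CPM in WT against 16.5 ± 2.89 CPM in Mark3-KO (SD, n = 3), so reads of the copies may be split between them and the value of Psme2 is uncertain. Psmf1, an inhibitor of the core known as PI31, measured 41.2, 35 and 31.3 CPM in WT against 28.8, 25.1 and 26.7 CPM in Mark3-KO, without overlap. It had a log2 fold change of -0.41 (SE 0.14), and -0.46 (SE 0.12; adjusted p = 0.109) with the correction.

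Promoter sequence of the members was described with a motif of the transcription factor Nfe2l1, which is known to drive subunit genes together when the proteasome is impaired, and of its relative Nfe2l2, which responds to oxidative stress. The core of the antioxidant response element, TGACNNNGC on either strand, occurred in 6 of 39 members with a RefSeq promoter window of 300 bases (15.4%), against 14.0% of the 27025 genes with such windows, where a gene counts if any of its windows matches. The 6 were Psmb5, Psmb6, Psmd9, Psmc6, Psmd12 and Psme4, of which the first 3 had negative and the last 3 positive log2 fold changes. Promoter stretches from RefSeq (GRCm38.p6) of 3 of them, chosen because they hold the motif and differ in sign, read 5′ to 3′ as follows, with the motif in capitals.
Psmb5, chr14:54618023-54618077, strand -: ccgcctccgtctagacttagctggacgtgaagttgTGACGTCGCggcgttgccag
Psmb6, chr11:70525313-70525356, strand +: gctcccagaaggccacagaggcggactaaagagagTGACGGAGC
Psmc6, chr14:45329574-45329640, strand +: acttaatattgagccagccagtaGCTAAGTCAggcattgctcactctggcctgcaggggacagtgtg
The interferon-stimulated response element core, GAAA repeated after 2 free bases on either strand, occurred in 5 of the 39 (12.8%), against 3.99% of all those genes. The 5 were Psmb3, Psmd4, Psmd9, Psme1 and Psmg4, and none of the immunoproteasome genes Psmb8, Psmb9 and Psmb10 matched. The gamma-activated site core, TTCNNNGAA, occurred in 3 (7.69%), Psmb8, Psmd2 and Psmg1, against 9.55%. CCAAT on either strand occurred in 13 (33.3%), against 41.1%. A match is a description of the letters, not of binding.

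Other genes of the ubiquitin-proteasome system were taken from 4 lists, and none of their genes passed the same edgeR test in either direction. Of the 12 proteasome-associated genes in the table (of 14 listed), 7 were higher and 1 lower at an unadjusted p below 0.05 (58.3% and 8.33%). Over all tested genes these shares were 20.8% and 24.8%. The median log2 fold change of the list was 0.42, and 0.04 with the GC correction. Usp14, a deubiquitinating enzyme of the cap, measured 94.3, 108 and 127 CPM in WT against 142, 170 and 199 CPM in Mark3-KO, all higher. Uchl5, another, measured 16.7, 19 and 22.7 CPM in WT against 25.7, 30.5 and 32.4 CPM in Mark3-KO, also all higher. Adrm1, the ubiquitin receptor that binds Uchl5, measured 74.8, 48.6 and 36.2 CPM in WT against 29.6, 25.1 and 21.9 CPM in Mark3-KO, all lower. Their log2 fold changes were 0.63, 0.60 and -1.06, and 0.03, 0.06 and 0.32 with the correction. On the longest transcript Adrm1 was at -0.23 with the correction, so the sign of its corrected value depends on the transcript taken.

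Of the 14 genes of ubiquitin and its shuttles, 4 were higher and 7 lower at an unadjusted p below 0.05 (28.6% and 50%). Over all tested genes these shares were 20.8% and 24.8%. The median of the list was -0.30, and -0.00 with the correction. Nploc4, a cofactor of the segregase Vcp, measured 140, 138 and 141 CPM in WT against 93.2, 98.7 and 79.4 CPM in Mark3-KO. WT replicate 3 did not stand apart in that gene, and its log2 fold change was -0.63, and -0.24 with the correction.

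Of the 11 regulators of subunit transcription, 1 was higher and 3 lower at an unadjusted p below 0.05 (9.09% and 27.3%). These lay below and near the all-gene shares of 20.8% and 24.8%. The median of the list was -0.30, and 0.04 with the correction. Stat3, which carries cytokine signals, measured 180, 187 and 160 CPM in WT against 113, 101 and 98.7 CPM in Mark3-KO. Its log2 fold change was -0.75 (SE 0.11; adjusted p = 0.0506), and -0.43 (adjusted p = 0.0496) with the GC correction, where it was the only gene of the 4 lists to pass the edgeR test after Benjamini-Hochberg adjustment. With the GC content of the longest transcript it was -0.38 and did not pass (edgeR adjusted p = 0.0893). Keap1, the inhibitor of Nfe2l2, measured 48.6, 33.2 and 22.9 CPM in WT against 17.5, 14.7 and 14.6 CPM in Mark3-KO, and Mafk, a DNA-binding partner of that factor, 19.5, 13.9 and 11.4 CPM and 8.47, 6.81 and 5.42 CPM. In both the groups did not overlap, with log2 fold changes of -1.16 and -1.11 that were 0.00 and -0.23 with the correction. Nfe2l1 and Nfe2l2 themselves had log2 fold changes of -0.33 (SE 0.36) and 0.14 (SE 0.10), and the groups overlapped in both. With the correction both signs turned, to 0.26 (SE 0.35) and -0.07 (SE 0.06). Nfe2l1 was widely spread, at 488, 168 and 384 CPM in WT against 317, 274 and 237 CPM in Mark3-KO, so its sign is uncertain.

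Of the 11 antigen processing genes, which act downstream of the immunoproteasome, 4 were higher and 6 lower at an unadjusted p below 0.05 (36.4% and 54.5%). Over all tested genes these shares were 20.8% and 24.8%. The median of the list was -0.75, and -0.04 with the correction. Tap2, the partner of Tap1 in peptide transport, measured 30.7, 22.2 and 11.6 CPM in WT against 8.83, 6.81 and 4.91 CPM in Mark3-KO. The class I molecules H2-D1 and H2-K1 measured 107, 78.0 and 55.2 CPM and 67.3, 51.3 and 37.6 CPM in WT, and 42.8, 41.3 and 30.8 CPM and 27.8, 30.9 and 23.0 CPM in Mark3-KO. None of these 3 genes had overlapping groups, and their log2 fold changes were -1.65, -1.06 and -0.94. With the correction they were -0.63, -0.21 and -0.01. The 4 higher genes were Pdia3, Erap1, Canx and B2m, the class I light chain, also without overlap. Their log2 fold changes were 0.60, 0.53, 0.48 and 0.33, and 0.40, 0.01, 0.00 and -0.20 with the correction.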

How the data were processed

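RNA-seq counts, deposited by the authors as whole numbers, were read from 1 table of 51912 Ensembl gene IDs for 6 libraries (3 WT, 3 Mark3-KO). FastQC, HISAT2 2.0.5, StringTie, DESeq2 and the build GRCm38 are named, per the submitters' processing notes; their order and settings, and the counting of shared or multiply placed reads, are not given in the sources used here. Per the labels' protocols, RNA was extracted with Trizol and a TruSeq kit was used, which keeps no strand information. The GENCODE M21 annotation of the reference chromosomes gave symbols and transcripts and matched 51633 IDs.

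Genes were kept with filterByExpr (19017) and scaled with TMM. Mark3-KO was compared with WT with the quasi-likelihood test of edgeR 4.0.16 (R 4.3.3) and Benjamini-Hochberg adjustment over all tested genes (threshold 0.05). The fit was also run on simulated counts that had no GC trend and no library lying between the groups. That run therefore cannot show how the test behaves on the present libraries. The SE of a log2 fold change is its size divided by the square root of F. The GC correction used, for each library, a natural spline with 6 degrees of freedom on principal-transcript GC content (log2 CPM with a prior count of 2) as an offset. DESeq2 1.42.0 and limma 3.58.1 were alternatives, with other scalings and filters, a replicate block and leaving out each library. CPM are on TMM-scaled library sizes.

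Every member is named. Values in every library are given for Psmb5 to Psmb10 and for up to 3 members per role class, or genes per list, with the smallest unadjusted p. Not every gene that this rule takes is reported here. Tap1, Nfe2l1, Nfe2l2, Nek6, Slc39a13, Psme2b, Pdia3, Erap1, Canx, B2m, Spp1 and Sparc were named after their values were seen. The members, the 4 lists and the markers were chosen with earlier results of these data known. The 4 endothelial markers tested (of 5) summed to 4.10 to 4.37 CPM in WT and 4.13 to 4.49 CPM in Mark3-KO. The 10 osteoblast markers had a median log2 fold change of -0.46, the blood cell markers 0.12 and the endothelial markers 0.05, with 0 called in each. With the GC correction the osteoblast median was -0.26, and Col1a1 went from -1.74 to -0.45. Chi-square per degree of freedom between any 2 libraries was at least 66.3, so none was a copy, a minimum reached by Mark3-KO replicate 1 with WT replicate 3.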

Additional observations from a re-analysis of the deposited data

How the results depend on the processing

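All 46 members kept the side of 0 of their log2 fold change with DESeq2 size factors, DESeq2's Wald test, limma-voom, the 1 CPM filter and the replicate block, and the cause of each difference below was not tested. Over all genes edgeR called 9 higher and 32 lower, among members 0 and 0, and in the 4 lists 0 and 0. In that order, higher then lower, the counts were 2190, 2320, 10, 8, 12 and 12 with library size alone; 2781, 4134, 10, 13, 12 and 15 with DESeq2's Wald test; and 2264, 3002, 11, 10, 13 and 13 with a filter of 1 CPM in 3 libraries. The GC correction gave 21 and 64 genes and 1 lower in the lists, and GC of the longest transcript 16 and 56, with 0 in the lists; limma-voom called 20 lower and no filter 52 lower. Leaving out 1 library gave 0 to 2528 genes higher and 0 to 3932 lower, 0 to 13 members each way, and 0 to 12 and 0 to 16 in the lists.

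The replicate block gave 3783, 4704, 13, 17, 15 and 18, and with GC correction 437, 716, 1, 6, 3 and 2. Correlations of same-numbered libraries were 0.33, -0.03 and 0.29, and WT replicate 2 correlated best with Mark3-KO replicate 1 (0.06). The pairs of numbers 1 and 3 were the highest of all, a hint from the data, but not every pair was above 0.1, so the numbers were not treated as a pairing.

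Median log2 fold changes with library size alone were -0.0065 over members, -0.031 in the base, 0.11 in the lid and 0.14 in the activators, and the sign of Psmb1 (0.078) and Psme1 (0.015) turned. With GC correction, and with the replicate block besides, they were -0.026 and -0.029 over members, 0.0101 and 0.0081 in alpha, -0.27 and -0.27 in the immunoproteasome, -0.0089 and -0.0077 in the base, -0.13 and -0.14 in base chaperones, 0.063 and 0.065 in core chaperones, and 0.20 and 0.19 in activators. With the longest transcript, chosen after seeing the data, they were -0.035 over members, 0.14 in alpha, -0.72 in the immunoproteasome, 0.0896 in the lid, -0.10 in base chaperones, 0.14 in core chaperones and 0.23 in activators. Leaving out 1 library gave -0.16 to -0.052 over members, 0.25 to 0.45 in base chaperones and -0.27 to -0.057 in core chaperones. The Psmb10 over Psmb7 difference was -1.39 with GC correction.

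Signs turned with GC correction, with the block besides, and with the longest transcript, in that order, for Psma2 (-0.29, -0.30, -0.26), Psma3 (-0.044, -0.048, -0.013), Psmc2 (-0.023, -0.024, -0.45), Psmc6 (-0.12, -0.13, -0.094), Psmd2 (0.027, 0.028, 0.041), Psmd8 (0.29, 0.28, 0.21), Psmd13 (0.23, 0.23, 0.29), Psmd14 (-0.058, -0.057, -0.027), Psmd10 (-0.13, -0.14, -0.10), Psmg2 (-0.17, -0.17, -0.062), Psmg4 (0.30, 0.30, 0.34), Psme1 (0.56, 0.56, 0.80) and Psme2 (0.17, 0.17, 0.22). With the longest transcript alone they turned for Psma7 (0.40), Psmb4 (0.024), Psmb7 (-0.20) and Psmd11 (-0.40). Psmc1 turned with no filter (-0.00023). Leaving out 1 library gave -0.084 to 0.0029 for Psmb1, -0.0504 to 0.073 for Psmc1 and -0.0034 to 0.073 for Psmc2.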
